A study of Mus musculus with 15 samples.

Results

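The genes described here are 30 components and inhibitors of B-cell receptor signalling, chosen by name and not by their values. They are the receptor chains, the co-receptors, the kinases, adaptors and effectors behind them, and the inhibitory receptors and phosphatases. All 30 were present in both deposited tables, among 16470 genes in the DMSO table and 16428 in the ibrutinib table, and 15869 genes were common to both. RNA came from the tumor burdened spleens of C57Bl/6 mice with leukemia. Eμ-TCL1 mice carry the TCL1 oncogene under a B-cell enhancer, and Eμ-TCL1;p53R172H/+ mice, called mutant below, carry in addition 1 mutant p53 allele beside the wild-type one. TCL1 was thus expressed in all groups, and no group without leukemia was included. Cells were freed from the spleen by mechanical disruption, which does not separate B cells from the other cells of the organ, and the mice had received no drug. The cells were then kept for 24 h in culture with DMSO, the solvent, or with 5 μM ibrutinib, an inhibitor of the kinase Btk. There were 3 Eμ-TCL1 and 5 mutant libraries in DMSO, and 3 Eμ-TCL1 and 4 mutant libraries in ibrutinib.

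The B-cell receptor is a surface immunoglobulin held by the Cd79a and Cd79b chains. When antigen is bound, Lyn phosphorylates these chains, Syk docks on them, and the adaptor Blnk gathers Btk, Plcg2 and the Vav proteins, from which calcium, protein kinase C, NF-kB and Ras signals follow. Cd22, Siglecg, Cd72 and Fcgr2b recruit phosphatases that limit the signal, and Ptpn6 (SHP-1) is among these phosphatases. Chronic lymphocytic leukemia, which the Eμ-TCL1 mouse models, depends on this pathway, and ibrutinib acts on it through Btk.

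Not all libraries were rich in B cells. Values are in CPM, reads of a gene relative to the library size, as scaled by the authors, and the 10 B-cell markers summed to 3761.9 to 5965.2 in 5 of the 8 DMSO libraries. In mutant replicates 1 and 2 in DMSO and mutant replicate 1 in ibrutinib, Btk was 3.6, 4.2 and 1.4, the B-cell markers summed to 237.9, 227.4 and 49.7, and the 14 T-cell markers to 3989.2, 4800.7 and 2735.6. A pair of Eμ-TCL1 libraries differed in another way. In Eμ-TCL1 replicate 2 in DMSO and replicate 1 in ibrutinib the 12 myeloid markers summed to 29481.2 and 20935.1 and the 9 erythroid markers found in the tables to 14771.2 and 12438.7, against at most 1168.0 and 201.2 elsewhere. Their B-cell markers summed to 554.3 and 411.8, yet Btk was 71.4 and 60.3, so a limit of 10 on Btk left out the libraries named before and not these. The remaining 10 libraries, with Btk of 10 or more and the myeloid gene Lyz2 under 1000, are called retained below: 2 Eμ-TCL1 and 3 mutant in each table, and those with Btk under 10 are called low-Btk. The retained set was chosen after the values were seen. It was not uniformly rich in B cells: in mutant ibrutinib replicate 3 the B-cell markers summed to 499.9 and the T-cell markers to 1696.3, and this library was left out in a further fit. Within the retained set the B-cell markers still differed between genotypes in ibrutinib, at 2394.5 and 3290.6 in Eμ-TCL1 against 499.9 to 1300.1 in the mutant, while the T-cell markers summed to 253.8 and 795.0 against 886.0 to 1696.3. In DMSO the corresponding sums were 4276.1 and 5965.2 against 3761.9 to 4494.9 for B cells, and 306.4 and 819.2 against 320.4 to 366.1 for T cells. Sex also differed: Xist was 868.7 or more in all 6 Eμ-TCL1 libraries and at most 1.2 in 6 of the 9 mutant ones. Mutant replicate 3 had Xist at 1491.3 in DMSO and 1.0 in ibrutinib, so either its number does not join cells of 1 mouse or a library is mislabelled, which was not tested.

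**Figure D1:**
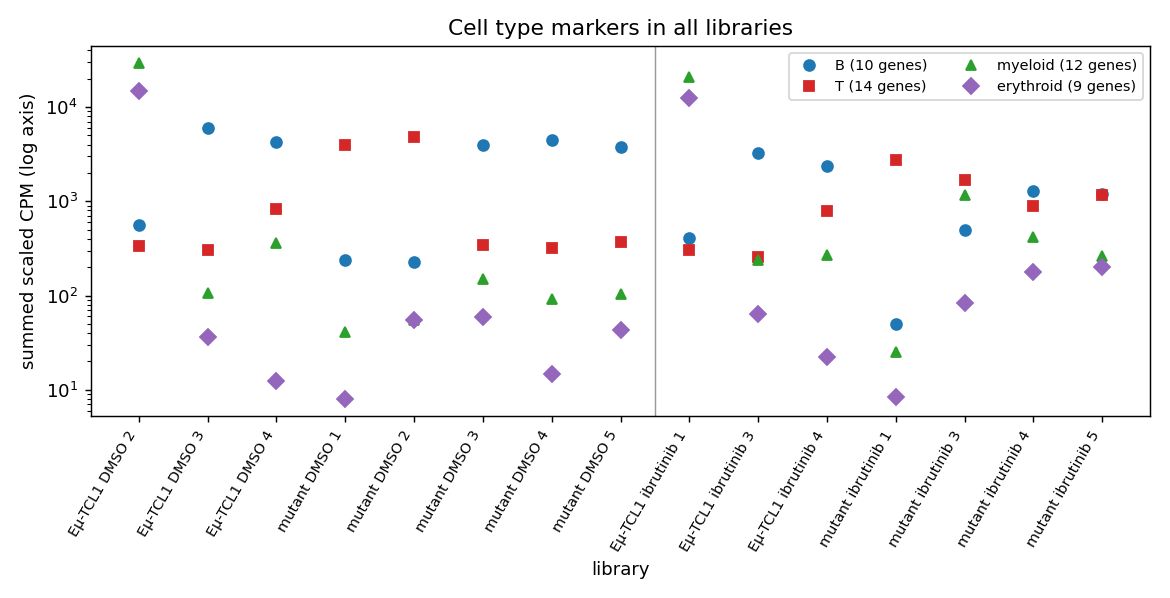
Summed values of marker genes (scaled CPM, log axis) in each of the 15 libraries, with DMSO left of the vertical line and ibrutinib right of it. The T-cell markers lie above the B-cell markers in mutant DMSO replicates 1 and 2 and in mutant ibrutinib replicates 1 and 3, and the myeloid and erythroid markers lie above both in Eμ-TCL1 DMSO replicate 2 and Eμ-TCL1 ibrutinib replicate 1.

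Most of the 30 genes were low where Btk was low. In DMSO, 21 of them were lower in both low-Btk mutant libraries than in any retained library, as were 21.2% of all genes, 4 were higher than in any (Fyn, Stim1, Nfatc2 and Ptprc), as were 22.5%, and 5 lay within the range. In ibrutinib the single low-Btk library was below the retained ones for 19 genes (23.3% of all genes), above them for 6 (26.4%) and within their range for 5. Cd79a, for example, was 12.8 and 13.2 in the low-Btk DMSO libraries and 259.6 to 380.1 in the retained ones. Fyn, a Src family kinase that T cells use behind their own receptor, was 392.9 and 451.0 in the former and 12.4 to 68.6 in the latter. The myeloid-rich Eμ-TCL1 library in DMSO was below the retained range for 18 genes (33.0% of all genes) and above it for 3 (28.8%), which were Vav3, Stim1 and Ptprc. The one in ibrutinib was below it for 7 genes (25.6%) and above it for 6 (29.1%). In a bulk library, fewer cells of a type and less RNA per cell cannot be told apart.

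**Figure D2:**
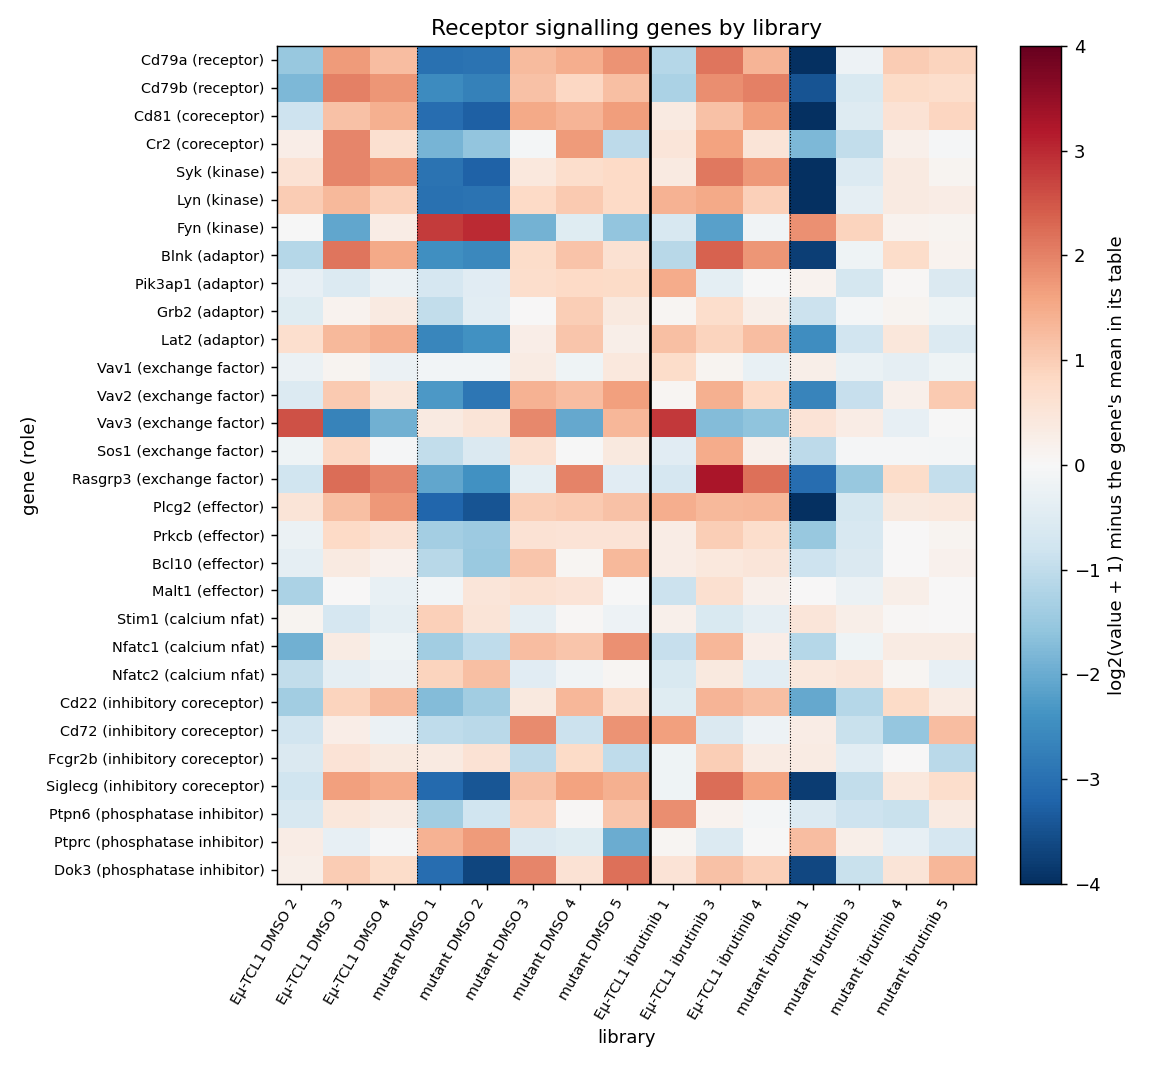
Each row is 1 of the 30 genes with its role, each column a library, and the colour the log2(value + 1) minus the mean of that gene over the libraries of its table, on a scale from -4 to 4. Mutant DMSO replicates 1 and 2 and mutant ibrutinib replicate 1 are blue for the receptor chains, Syk, Lyn, Blnk, Plcg2, Siglecg and Dok3 and red for Fyn and Ptprc.

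Per kilobase of exon, the highest levels in the retained DMSO libraries were those of Cd79b (median 551 per kb), Ptpn6 (218 per kb), Cd79a (206 per kb), Nfatc1 (131 per kb) and Plcg2 (121 per kb). The lowest were Vav3 (0.616 per kb), the complement receptor Cr2 (1.42 per kb), Nfatc2 (3.16 per kb), Fyn (4.13 per kb) and Stim1 (4.23 per kb). Cd79b was above Cd79a in each of the 5 libraries, with a range of 422 to 974 per kb against 178 to 261 per kb, whereas the ranges of Ptpn6 (166 to 343 per kb) and Cd79a overlapped.

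The question asked of each table was whether the genotypes differed, and the test was limma on log2(value + 1), adjusted over all genes of the table. In DMSO with all libraries, none of the 30 genes had an adjusted p under 0.05, against 2 of 16470 genes (0.0121%). At an unadjusted p under 0.05, 1 of the 30 was higher in the mutant (Malt1) and none lower, where 3.52% of all genes were higher and 4.65% lower. Of the 30 genes, 20 were lower, with a median log2 difference of -0.36 against 0.04 over all genes. Without the libraries under the Btk limit, the median of the 30 became 0.39, only 10 were lower, and 3 were higher at an unadjusted p under 0.05 (Pik3ap1, Nfatc1 and Vav2) and none lower, against 6.52% and 4.67% of all genes. Of all genes, 1 (0.00607%) passed the adjusted threshold in that fit. In the retained libraries the same 3 genes were higher and Syk, Blnk and Cd79b were lower at that unadjusted p, against 8.35% of all genes higher and 8.71% lower. The adjusted threshold was passed by 12 genes (0.0729%), none of them among the 30, and the median of the 30 was -0.02. The share of the 30 past the unadjusted threshold in each direction was therefore close to that of all genes in DMSO.

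In ibrutinib with all libraries, no gene of the table had an adjusted p under 0.05 (0.0%). At an unadjusted p under 0.05, 5 of the 30 were lower in the mutant, where 6.32% of all genes were, and 1 was higher, where 5.69% were. The lower ones were Bcl10, Cr2, Lat2, Prkcb and Rasgrp3, and the higher one was Fyn. In all, 24 of the 30 were lower, with a median of -1.14 against -0.05 over all genes. Without the library under the Btk limit, 6 were lower and 1 higher, against 4.77% and 4.97% of all genes, the median was -0.67, and again no gene passed the adjusted threshold (0.0%). In the retained libraries 13 of the 30 were lower and 2 higher (Vav3 and Stim1), against 10.3% and 7.38% of all genes, with a median of -0.95 against -0.01 and none of all genes past the adjusted threshold (0.0%). Without mutant ibrutinib replicate 3 as well, 10 were lower and the same 2 higher, against 7.37% and 6.01% of all genes, with a median of -0.60 and none of all genes past the adjusted threshold (0.0%). Among the 13 of the retained libraries, the 17 of the 30 that are not typical of T cells accounted for 11, and the 13 that T cells also use for the other 2. The lower values moved with the smaller B-cell marker sums and larger T-cell marker sums of the mutant ibrutinib libraries, whose part in the result was not tested by itself. When the mean log2 of the B-cell markers was subtracted in each library, 8 of the 30 genes rather than 24 were lower in the mutant, and none of the 30 had an unadjusted p under 0.05 in that direction.

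Whether the genotype difference itself differed between the tables was tested as an interaction in limma. With all libraries, no gene had an adjusted p under 0.05 (0.0%), and none of the 30 had an unadjusted p under 0.05, against 0.523% of all genes. The difference, ibrutinib minus DMSO, was negative for 28 of the 30, with a median of -0.54 against -0.07. When centred on the B-cell markers, it was negative for 11 of the 30, and none had an unadjusted p under 0.05. As given above, B-cell marker sums of the retained libraries differed more between genotypes in ibrutinib than in DMSO. Their part in the interaction, in this fit and those below, was not tested. With genotype and replicate number as a block, the interaction rests only on numbers present in both treatments. These were Eμ-TCL1 replicates 3 and 4 and mutant replicates 1, 3, 4 and 5. In that fit 12 of the 30 had an unadjusted p under 0.05, all negative, against 3.74% of all genes negative and 1.31% positive. Without both mutant libraries numbered 3 there were 14, all negative, against 3.37% and 0.882%, and in both fits none of all genes passed the adjusted threshold (0.0%; smallest limma adjusted p of the 30, 0.661 and 0.822). With Btk of 10 or more, 569 of 15869 genes were negative and 576 positive at an unadjusted p under 0.05 (7.22% in either direction). None of all genes passed the adjusted threshold (0.0%). Of the 30, 7 had such a p, all negative. These were Pik3ap1, Nfatc1, Lyn, Plcg2, Prkcb, Bcl10 and Vav2. In the retained libraries 665 of 15869 genes were negative and 754 positive at that p (8.94% in either direction). None passed the adjusted threshold (0.0%). Of the 30 there were 8, all negative. These were Pik3ap1, Nfatc1, Siglecg, Malt1, Prkcb, Cd81, Lyn and Vav2, of which 5 were also among the former 7. Without mutant ibrutinib replicate 3 there were 6, all negative, against 2.87% of all genes negative and 3.96% positive (6.83% in either direction).

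**Figure D3:**
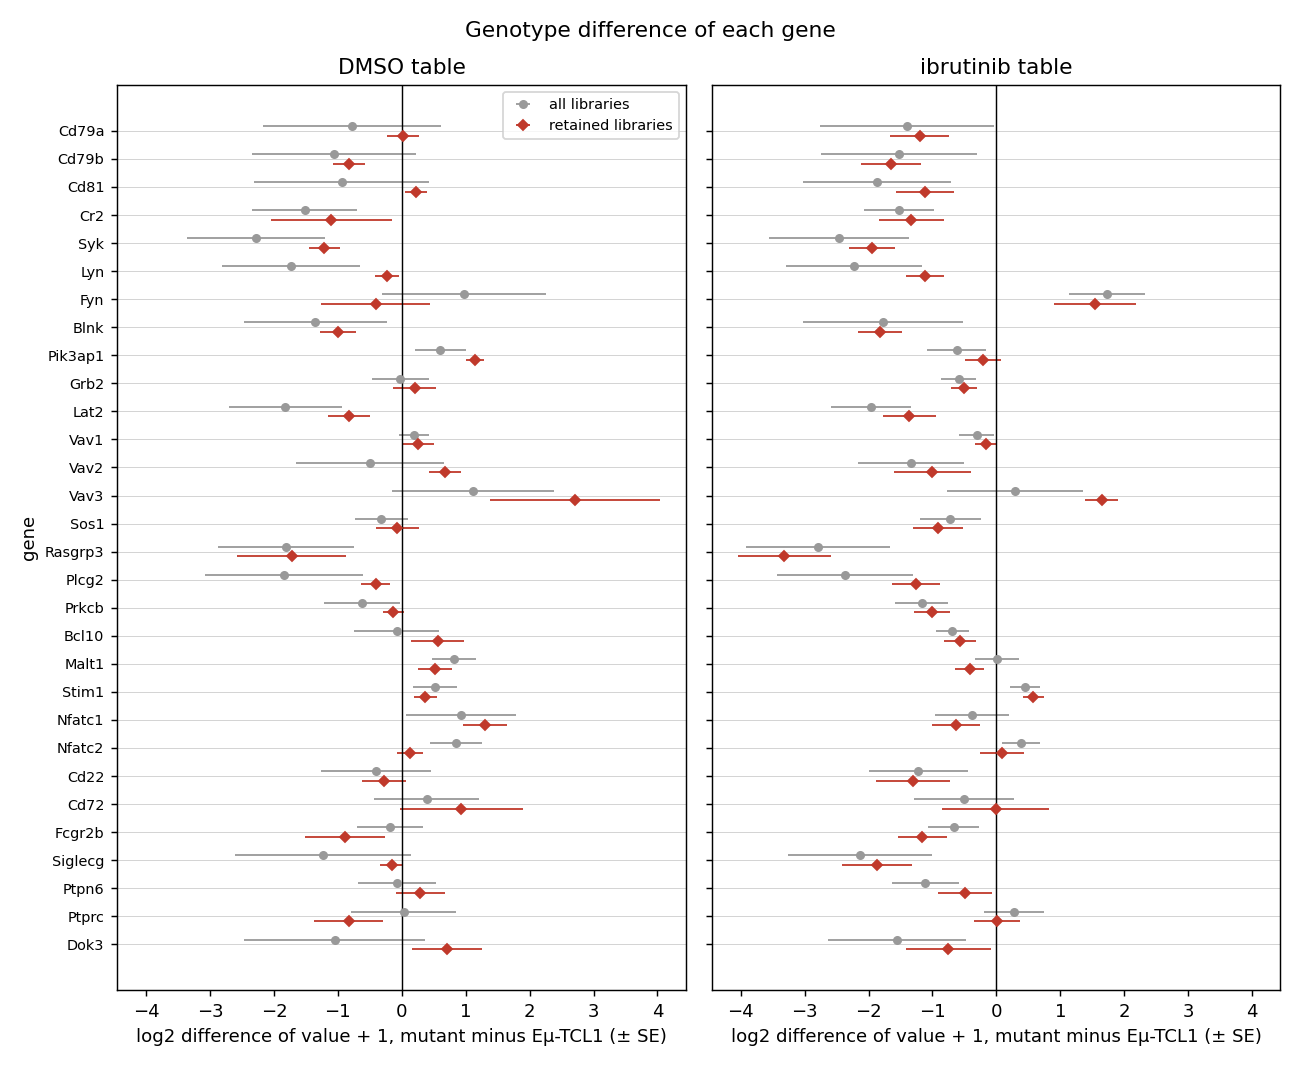
Log2 difference in value + 1, mutant minus Eμ-TCL1, for each of the 30 genes with its standard error, in DMSO (left) and ibrutinib (right), from all libraries (grey circles) and from the retained libraries (red diamonds). In DMSO the standard errors of the receptor chains are several times smaller in the retained libraries, and in ibrutinib most red diamonds lie left of 0.

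Of the receptor chains, Cd79a did not separate the genotypes in DMSO, and Cd79b did so in the retained libraries. Cd79a was 37.9, 361.8 and 259.6 in Eμ-TCL1 replicates 2 to 4 and 12.8, 13.2, 262.6, 300.3 and 380.1 in mutant replicates 1 to 5. Cd79b was 96.2, 1393.4 and 1163.1 in Eμ-TCL1 and 59.2, 51.5, 772.8, 604.0 and 789.1 in the mutant. The retained mutant libraries were thus all below the retained Eμ-TCL1 ones for Cd79b, with a log2 difference of -0.83 ± 0.25 (SE; limma adjusted p = 0.232), and overlapped them for Cd79a, with 0.02 ± 0.25. In ibrutinib Cd79a was 42.7, 421.5 and 245.8 in Eμ-TCL1 replicates 1, 3 and 4 and 4.6, 81.1, 193.7 and 174.2 in mutant replicates 1, 3, 4 and 5. Cd79b was 85.0, 742.6 and 835.2 against 17.6, 134.2, 347.8 and 333.3. In the retained libraries neither chain overlapped between genotypes in ibrutinib, with differences of -1.20 ± 0.46 for Cd79a and -1.65 ± 0.47 for Cd79b (limma adjusted p = 0.277 and 0.192). The share of all genes without overlap between genotypes was not computed, for these chains or for the genes below. With 2 against 3 libraries an exact permutation p cannot go below 0.1. Lack of overlap is therefore given as a description only.

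The co-receptors Cd81 and Cr2 lower the amount of antigen needed to start the signal. Cd81 in the retained libraries was 200.8 and 241.3 in Eμ-TCL1 and 230.6 to 289.5 in the mutant in DMSO, and 117.7 and 165.3 against 35.4 to 94.8 in ibrutinib. The genotypes overlapped in DMSO and not in ibrutinib, and the interaction was -1.34 ± 0.53 (limma adjusted p = 0.51). Interactions of single genes, here and below, were fitted without a block. Libraries with the same number in both treatments were thus treated as independent samples. Cr2 was low throughout, at most 29.7. In ibrutinib it was 4.8, 11.6 and 4.9 in Eμ-TCL1 against 0.2, 1.1, 3.8 and 3.0 in the mutant, with no overlap (exact permutation p = 0.0571, two-sided).

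Syk, the kinase that docks on the phosphorylated receptor chains, was lower on average in the mutant in both tables. In DMSO it was 579.8, 1503.3 and 1309.8 in Eμ-TCL1 and 48.7, 40.0, 523.7, 630.2 and 675.8 in the mutant. These overlapped, with the myeloid-rich Eμ-TCL1 library below mutant replicates 4 and 5. The ibrutinib values were 524.4, 1747.3 and 1345.8 against 21.9, 276.3, 522.5 and 438.9. All 4 mutant libraries were below all 3 Eμ-TCL1 libraries in ibrutinib, although the Eμ-TCL1 library rich in myeloid cells lay only just above the highest mutant one. The difference was -2.28 ± 1.08 in DMSO and -2.46 ± 1.10 in ibrutinib with all libraries (limma adjusted p = 0.629 and 0.43), and -1.21 ± 0.24 and -1.94 ± 0.36 in the retained ones (limma adjusted p = 0.134 and 0.113). Among the retained libraries the 2 genotypes were 2.31-fold and 3.84-fold apart.

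Lyn, which starts the signal and also phosphorylates the inhibitory receptors, differed less in DMSO than Syk did. In the retained DMSO libraries it was 391.1 and 306.8 in Eμ-TCL1 and 280.1, 332.5 and 278.9 in the mutant, which overlapped. In ibrutinib it was 268.4, 293.0 and 197.3 in Eμ-TCL1 against 4.9, 79.9, 132.4 and 125.6 in the mutant, with no overlap and a difference in the retained libraries of -1.12 ± 0.30 (limma adjusted p = 0.18). Fyn had the opposite direction in ibrutinib, at 65.5 or less in Eμ-TCL1 against 257.8, 133.5, 78.8 and 77.8 in the mutant. These did not overlap (log2 difference 1.73 ± 0.59, limma adjusted p = 0.346; exact permutation p = 0.0286, two-sided, the smallest that 4 against 3 libraries allow). In retained DMSO libraries Fyn was 12.4 and 68.6 against 14.5, 39.9 and 18.0, which overlapped. The T-cell marker Cd3e moved with Fyn, at 9.0 to 14.8 in the Eμ-TCL1 and 34.5 to 96.0 in the mutant ibrutinib libraries, and its part in the result was not tested.

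The adaptors fell into groups with different directions. Blnk, the scaffold that joins Syk to Btk and Plcg2, was 39.5, 391.5 and 249.5 in Eμ-TCL1 and 15.3, 13.9, 146.2, 194.8 and 132.6 in the mutant in DMSO. With ibrutinib they were 33.4, 377.0 and 249.7 against 4.4, 64.6, 122.5 and 80.7. In the retained libraries the genotypes did not overlap in either table, with differences of -1.0 ± 0.28 and -1.82 ± 0.34 (limma adjusted p = 0.213 and 0.113). The myeloid-rich Eμ-TCL1 libraries and the low-Btk mutant libraries had Blnk values below every retained library. Over all libraries the standard errors were 1.12 and 1.25, and without the low-Btk libraries 0.82 and 0.89.

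Pik3ap1 (BCAP), the adaptor that brings phosphoinositide 3-kinase to the receptor, was higher in the retained mutant libraries in DMSO. It was 107.8, 91.9 and 113.6 in Eμ-TCL1 and 84.6, 98.0, 219.0, 233.5 and 232.9 in the mutant, so that the 3 retained mutant libraries were each about equal and above all Eμ-TCL1 libraries. The difference in the retained libraries was 1.15 ± 0.14 or 2.22-fold (limma adjusted p = 0.0879), and 1.13 ± 0.19 with only the Btk limit applied (limma adjusted p = 0.216). Over all libraries the genotypes overlapped, with a difference of 0.60 ± 0.40 (limma adjusted p = 0.645). In ibrutinib the retained values were 26.5 and 35.2 in Eμ-TCL1 and 21.4, 36.2 and 23.5 in the mutant, which overlapped (-0.21 ± 0.28, 95% interval -0.92 to 0.50). The interaction in the retained libraries, fitted without a block, was -1.36 ± 0.33 and had the lowest p of the 30 genes (limma adjusted p = 0.305). The fit with genotype and replicate number as a block rests on the numbers in both treatments, low-Btk mutant replicate 1 included. In that fit Pik3ap1 was not among the 12 genes with an unadjusted p under 0.05. Nor was it among the 14 such genes when mutant replicate 3 was left out. Lat2, a membrane adaptor of B and myeloid cells, was 35.3, 28.0 and 36.1 against 1.8, 8.2, 20.3 and 9.6 in ibrutinib, with no overlap and a difference of -1.96 ± 0.62 (limma adjusted p = 0.323; exact permutation p = 0.0571). By the annotation, 36.3% of its exon bases also lie in exons of other genes. Grb2, which links receptors to Sos1, had a difference in the retained libraries of 0.20 ± 0.33 in DMSO and -0.51 ± 0.20 in ibrutinib.

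The exchange factors switch on small GTPases, Rac in the case of the Vav proteins and Ras in the case of Sos1 and Rasgrp3. Rasgrp3 had the largest genotype difference of the 30 in ibrutinib. It was 18.0, 290.2 and 140.0 in Eμ-TCL1 and 2.7, 9.6, 49.1 and 14.8 in the mutant, a difference of -2.79 ± 1.12 (limma adjusted p = 0.394), and in the retained libraries -3.32 ± 0.73 or 9.97-fold (limma adjusted p = 0.143). In DMSO it was 24.2, 203.5 and 166.0 against 9.3, 7.1, 31.8, 169.0 and 30.5, and the genotypes overlapped: the myeloid-rich Eμ-TCL1 library was below mutant replicates 3 and 5, and mutant replicate 4 was above Eμ-TCL1 replicate 4. Vav2 was 57.5, 177.0 and 116.5 against 16.5, 10.5, 226.8, 200.7 and 268.0 in DMSO, where the 3 retained mutant libraries were above all others (0.68 ± 0.25 in the retained libraries, limma adjusted p = 0.279, but -0.50 ± 1.16 over all libraries). In ibrutinib Vav2 had a difference of -1.0 ± 0.60 in the retained libraries. Vav1, the member that T cells share, was 196.1 to 307.7 in DMSO. In ibrutinib it was 91.1 to 125.3 in the retained libraries, 138.2 in the low-Btk library and 192.5 in the myeloid-rich one. Vav3 was low in retained Eμ-TCL1 libraries, at 1.8 and 3.7 in DMSO and 2.4 and 2.7 in ibrutinib. In the retained mutant libraries it was 67.5, 3.3 and 44.1 in DMSO and 12.9, 8.0 and 10.1 in ibrutinib, a difference of 1.65 ± 0.26 in ibrutinib (limma adjusted p = 0.0947). With all libraries this difference was 0.29 ± 1.07, since the myeloid-rich Eμ-TCL1 library had the highest Vav3 of that table, 79.0. Sos1 did not separate the genotypes in DMSO (-0.07 ± 0.34), and in ibrutinib its retained mutant values were within 83.4 to 84.8 against 100.7 and 250.6 in Eμ-TCL1.

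Of the effectors, Plcg2 makes the second messengers that release calcium, and Prkcb, Bcl10 and Malt1 carry the signal to NF-kB. Plcg2 in ibrutinib was 324.8, 289.7 and 295.6 in Eμ-TCL1 and 5.6, 72.7, 155.9 and 156.9 in the mutant. Prkcb was 227.9, 363.1 and 303.0 against 63.9, 118.3, 185.4 and 200.5. Bcl10 was 56.9, 61.6 and 65.2 against 25.7, 30.9, 46.8 and 52.4. For all of these the mutant libraries lay below the Eμ-TCL1 ones without overlap, with differences over all libraries of -2.37 ± 1.07, -1.17 ± 0.41 and -0.69 ± 0.26 (limma adjusted p = 0.433, 0.347 and 0.374; exact permutation p = 0.0857 each, two-sided). Centred on the B-cell markers, the differences of Prkcb and Bcl10 were 0.48 and 0.96. In retained DMSO libraries the corresponding differences were -0.41 ± 0.23, -0.13 ± 0.16 and 0.56 ± 0.42. Malt1 was the only one of the 30 with an unadjusted p under 0.05 in DMSO with all libraries, at 97.4, 238.4 and 190.0 against 217.5, 330.1, 358.6, 341.8 and 233.8 (0.82 ± 0.34, limma adjusted p = 0.593; exact permutation p = 0.0714). Its lowest value was that of the myeloid-rich Eμ-TCL1 library, and without the low-Btk and myeloid-rich libraries the difference was 0.52 ± 0.26.

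Stim1 senses calcium stores, and Nfatc1 and Nfatc2 are transcription factors that calcium activates. Nfatc1 was 119.6, 577.4 and 402.8 in Eμ-TCL1 and 172.8, 223.7, 1071.8, 977.5 and 1613.9 in the mutant in DMSO. The 3 retained mutant libraries were above all Eμ-TCL1 libraries, by 1.30 ± 0.34 or 2.47-fold in the retained comparison (limma adjusted p = 0.192). Over all libraries the genotypes overlapped, with a difference of 0.93 ± 0.86 (limma adjusted p = 0.713). In ibrutinib Nfatc1 was 124.0, 597.4 and 281.9 against 107.4, 208.8, 295.2 and 299.3, which overlapped (-0.63 ± 0.38 in the retained libraries). The interaction in the retained libraries was -1.94 ± 0.53 (limma adjusted p = 0.348). Stim1 was higher in the mutant among the retained ibrutinib libraries, with 59.5 to 69.5 against 38.2 and 46.0 (0.58 ± 0.16, limma adjusted p = 0.177). Nfatc2 was highest in the low-Btk libraries in DMSO, at 74.2 and 91.9, and had a difference of 0.13 ± 0.20 in the retained DMSO libraries.

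**Figure D4:**
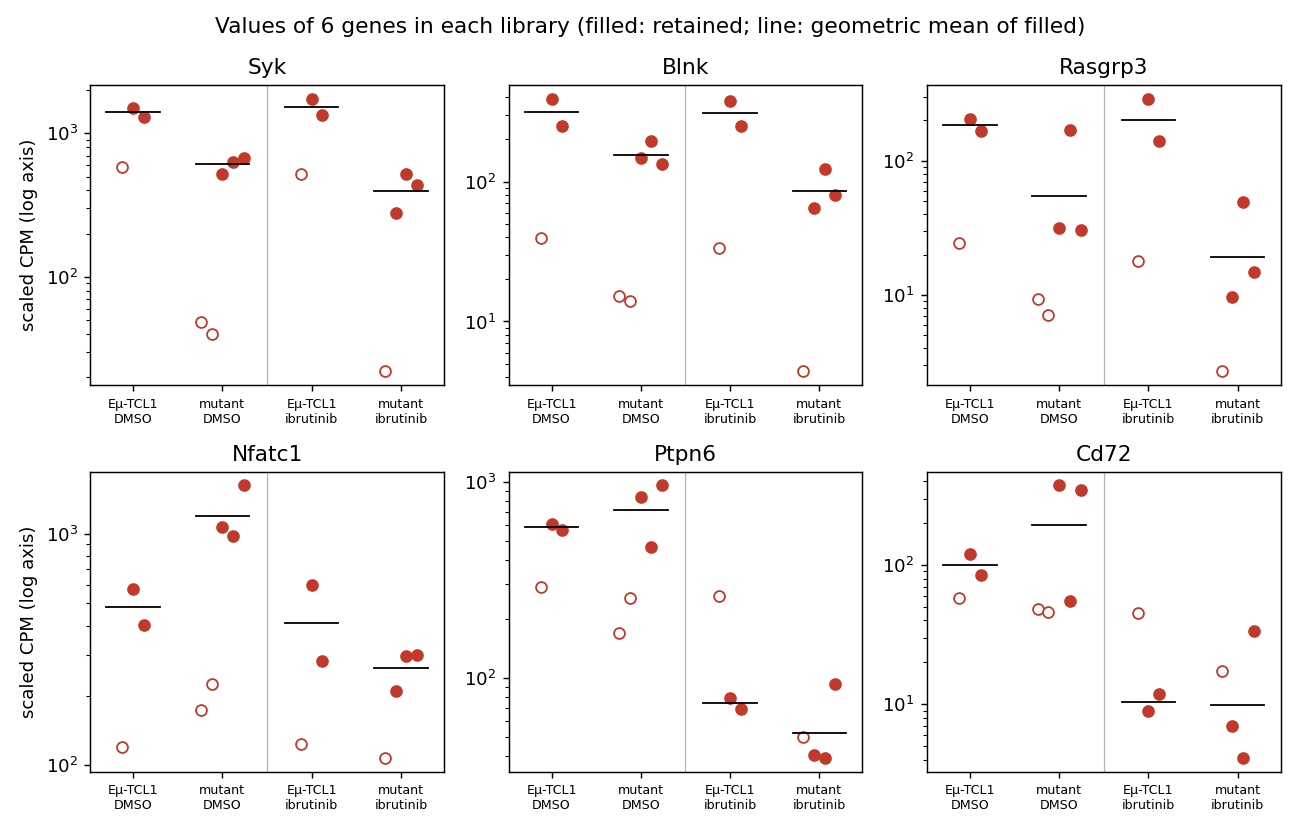
Values of Syk, Blnk, Rasgrp3, Nfatc1, Ptpn6 and Cd72 (scaled CPM, log axis) in every library by genotype and treatment, with retained libraries filled, the others open, and a line at the geometric mean of the filled points. Filled Syk and Blnk points of the mutant lie below those of Eμ-TCL1 in both treatments, filled Nfatc1 points of the mutant lie above in DMSO only, and filled Ptpn6 and Cd72 points lie lower in ibrutinib than in DMSO in both genotypes.

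The inhibitory receptors Cd22 and Siglecg bind sialic acids, Fcgr2b binds immune complexes, and Cd72 is a lectin-like receptor, and all carry motifs that recruit phosphatases. Siglecg in retained libraries was 212.4 and 189.3 in Eμ-TCL1 against 152.7, 207.3 and 183.6 in the mutant in DMSO, which overlapped. Its ibrutinib values were 188.4 and 123.8 against 19.7, 53.5 and 65.0, with a difference of -1.87 ± 0.55 (limma adjusted p = 0.197) and an interaction of -1.71 ± 0.63 (limma adjusted p = 0.477). Cd22 showed 203.3 and 184.3 against 34.9 to 133.3 in ibrutinib (-1.31 ± 0.58). Fcgr2b was the inhibitory receptor least tied to B-cell content, at 245.2 and 287.0 in the low-Btk DMSO libraries, within the retained range of 92.4 to 322.2. Its ibrutinib values in the retained libraries were 227.8 and 144.7 against 85.5, 115.5 and 53.4 (-1.16 ± 0.38, limma adjusted p = 0.23). Cd72 did not differ detectably by genotype in either table, with 0.93 ± 0.96 in DMSO and -0.01 ± 0.84 in ibrutinib in the retained libraries, and intervals of -1.61 to 3.47 and -2.15 to 2.14.

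Among the phosphatases and other inhibitors, Ptpn6 is a phosphatase that Cd22 and Cd72 recruit. Ptprc (CD45) sets the activity of the Src family kinases, and Dok3 is an inhibitory adaptor. Ptpn6 differed by 0.29 ± 0.38 in DMSO and -0.49 ± 0.42 in ibrutinib between genotypes in the retained libraries. Ptprc was 2833.8 and 3541.2 in the low-Btk DMSO libraries and 272.3 to 1054.7 in the retained ones. Dok3 in the retained DMSO libraries was 165.8 and 135.7 in Eμ-TCL1 and 320.5, 122.2 and 381.4 in the mutant, with the genotypes overlapping (0.71 ± 0.55).

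Mutant replicate 4 in DMSO stood apart from mutant replicates 3 and 5 for several of these genes. Rasgrp3 was 169.0 in replicate 4 against 31.8 and 30.5, Cr2 was 24.9 against 6.6 and 2.9, and Fcgr2b was 322.2 against 92.4 and 94.7. In the other direction Vav3 was 3.3 against 67.5 and 44.1, Cd72 was 54.8 against 374.6 and 349.1, and Dok3 was 122.2 against 320.5 and 381.4. For Rasgrp3, Cr2 and Vav3 replicate 4 lay between the values of Eμ-TCL1 replicates 3 and 4, and for Dok3 it was near them. For Fcgr2b it was above both of them and for Cd72 below both. Its Xist was 0.4 and that of replicates 3 and 5 was 1491.3 and 837.6. The values of Syk, Blnk, Pik3ap1 and Nfatc1 in replicate 4 were, in contrast, like those of replicates 3 and 5.

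Ratios to Cd79a within a library do not depend on how the tables were scaled. They are given for the retained libraries as a description. Syk over Cd79a was 4.16 and 5.05 in Eμ-TCL1 and 1.78 to 2.10 in the mutant in DMSO, and 4.15 and 5.48 against 2.52 to 3.41 in ibrutinib, so the mutant was lower without overlap in both tables. Cd79b over Cd79a was 3.85 and 4.48 against 2.01 to 2.94 in DMSO, and 1.76 and 3.40 against 1.65 to 1.91 in ibrutinib, where the genotypes overlapped. Nfatc1 over Cd79a was 1.60 and 1.55 against 3.26 to 4.25 in DMSO. With ibrutinib the ratio was 1.42 and 1.15 against 1.52 to 2.57, so that the mutant was higher by this ratio although its Nfatc1 value was lower on average. Over the 30 genes, the median genotype difference in ibrutinib was 0.24 relative to Cd79a and 0.53 relative to the mean of the B-cell markers, against -0.95 without such a reference. Relative to the B-cell markers, 5 of the 30 were lower in the mutant in ibrutinib. The general shift of the 30 to lower values in ibrutinib thus turned direction with the reference, which moves every gene by the same amount.

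Ibrutinib and DMSO values were in tables scaled separately, so they are set side by side without a test. Over the 10626 genes with a mean of at least 5, the median log2(value + 1) of a library was 4.97 to 5.09 in the DMSO table and 4.54 to 4.75 in the ibrutinib table, and each library was centred on its own median. Cd72 and Ptpn6 had the lowest centred values in ibrutinib relative to DMSO, by -2.76 and -2.57 log2 units in Eμ-TCL1 and by -3.63 and -3.27 in the mutant, over the retained libraries. Only 23 of the 10626 genes (0.216%) were more than 2 units lower in both genotypes, and these 2 were among them. Ptpn6 was 612.1 and 566.1 in Eμ-TCL1 and 841.0, 464.9 and 961.3 in the mutant in DMSO, and 79.1 and 69.1 against 40.1, 38.8 and 92.7 in ibrutinib. Cd72 was 119.4 and 85.1 against 374.6, 54.8 and 349.1 in DMSO, and 9.0 and 11.8 against 7.0, 4.1 and 33.8 in ibrutinib. For both genes each ibrutinib library was below each DMSO library among the retained ones, also after centring. After centring the same held for Pik3ap1, Vav1 and Plcg2. The share of all genes for which it held was not computed. By the annotation, 41.6% of the exon bases of Cd72 and 6.96% of those of Ptpn6 also lie in exons of other genes.

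The other libraries, which had no replicates of their kind in at least 1 table, showed smaller differences. In the myeloid-rich Eμ-TCL1 libraries Ptpn6 was 289.8 in DMSO and 262.7 in ibrutinib and Cd72 57.7 and 45.5, centred differences of 0.08 and -0.12. In the low-Btk mutant libraries the centred differences were -1.62 for Ptpn6 and -0.98 for Cd72. As a ratio to Cd79a in the retained libraries, Ptpn6 went from 1.55 to 3.20 in DMSO to 0.188 to 0.532 in ibrutinib, and as a ratio to Syk from 0.407 to 1.61 to 0.0453 to 0.211, without overlap in either case. The third gene more than 1 log2 unit lower in both genotypes was Pik3ap1, at -1.30 in Eμ-TCL1 and -2.58 in the mutant, with values of 91.9 to 233.5 in DMSO and 21.4 to 36.2 in ibrutinib. Of the 30 genes, these 3 were more than 1 unit lower in Eμ-TCL1, where 3.65% of genes were, and 14 were in the mutant, where 8.74% of genes were. The medians of the 30 were -0.12 in Eμ-TCL1 and -0.96 in the mutant, against 0.06 and 0.03 over the 10626 genes. In the mutant the B-cell marker sums were 3761.9 to 4494.9 in the retained DMSO libraries and 499.9 to 1300.1 in the ibrutinib ones, and in Eμ-TCL1 4276.1 and 5965.2 against 2394.5 and 3290.6. Relative to the mean of the B-cell markers, the differences remained -2.24 and -1.83 for Ptpn6, -2.44 and -2.19 for Cd72 and -0.98 and -1.15 for Pik3ap1, in Eμ-TCL1 and the mutant respectively. Fyn had the highest centred value in the mutant, 2.53, beside 0.51 in Eμ-TCL1.

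**Figure D5:**
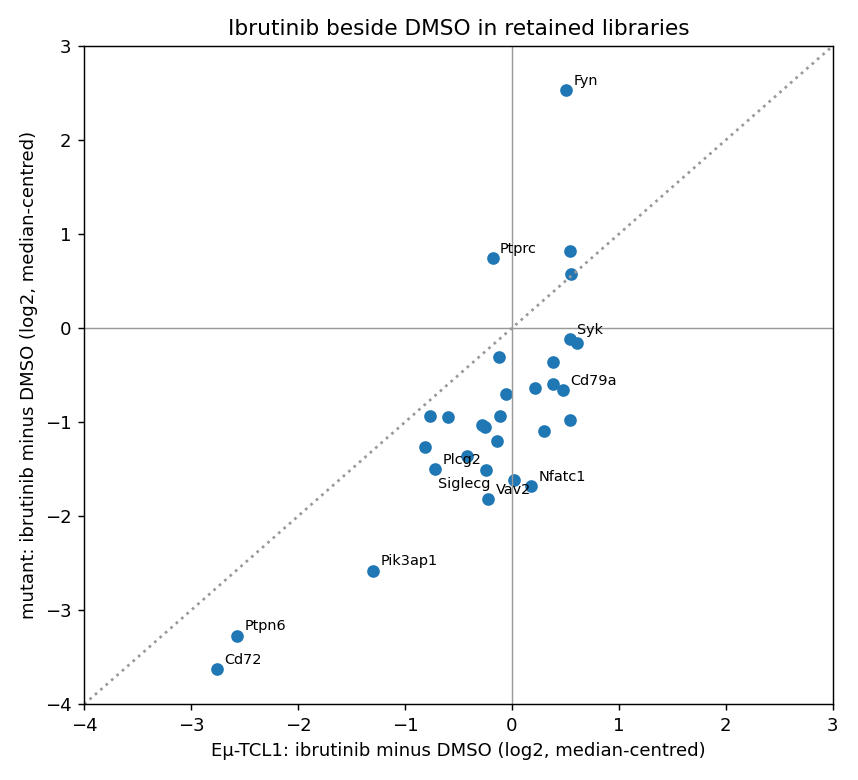
Ibrutinib minus DMSO difference in log2(value + 1), each library centred on its median, over the retained libraries, for Eμ-TCL1 (horizontal axis) and the mutant (vertical axis), with 1 point for each of the 30 genes and a dotted line of equality. Cd72 and Ptpn6 lie at the lower left, Pik3ap1 next to them, and most points lie below the line.

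The 250 bases before the RefSeq start of Cd72, Ptpn6 and Pik3ap1 are shown because these 3 genes had the largest negative differences of the 30, ibrutinib minus DMSO, in both genotypes (GRCm38.p6, written 5′ to 3′ on the strand of the gene). Capitals mark matches to GAGGAA, a form of the Ets factor site, and to CANNTG, the E-box, on either strand. Other forms of the Ets site were not searched and are not marked.
Cd72, chr4:43454627-43454876, minus strand: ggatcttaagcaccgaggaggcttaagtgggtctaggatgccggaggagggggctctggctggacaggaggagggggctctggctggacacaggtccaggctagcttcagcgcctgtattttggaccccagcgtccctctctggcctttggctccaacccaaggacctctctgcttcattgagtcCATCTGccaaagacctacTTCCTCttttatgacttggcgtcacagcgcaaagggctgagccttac
Ptpn6, chr6:124738710-124738959, minus strand: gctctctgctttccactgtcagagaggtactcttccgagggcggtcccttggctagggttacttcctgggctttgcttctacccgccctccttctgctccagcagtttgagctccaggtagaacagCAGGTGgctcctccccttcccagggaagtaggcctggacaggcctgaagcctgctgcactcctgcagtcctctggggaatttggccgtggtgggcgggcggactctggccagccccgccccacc
Pik3ap1, chr19:41385103-41385352, minus strand: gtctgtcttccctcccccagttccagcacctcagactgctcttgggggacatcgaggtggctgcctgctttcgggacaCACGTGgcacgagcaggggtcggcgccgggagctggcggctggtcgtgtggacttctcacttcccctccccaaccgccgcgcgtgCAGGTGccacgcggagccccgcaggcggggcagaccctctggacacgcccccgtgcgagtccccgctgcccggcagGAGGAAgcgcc
GAGGAA occurred once before Cd72 and once before Pik3ap1 and not before Ptpn6, and CANNTG once before Cd72 and Ptpn6 and at 2 places before Pik3ap1. The octamer ATTTGCAT was in none of these windows. Among 32851 such windows of RefSeq genes, 23.3% held GAGGAA, 66.2% CANNTG and 1.60% the octamer. Of the 30 genes, 25 had 33 windows that were searched, of which 33.3%, 72.7% and 6.06% held these letters. The octamer matches were before Blnk and Prkcb. A match shows only that the letters are present.

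Of 67 further genes of the receptor pathway, all measured, none had an adjusted p under 0.05 in any of the 3 comparisons with all libraries. At an unadjusted p under 0.05, 3 were lower and 1 higher in the mutant in DMSO (4.65% and 3.52% of all genes) and 10 were lower and 1 higher in ibrutinib (6.32% and 5.69%). None had such a p in the interaction (0.523%). The medians were -0.01, -0.29 and -0.22. The lowest p in DMSO were those of the adaptor Sh3bp2 (-1.15 ± 0.28, limma adjusted p = 0.375), Dapp1 (-0.82 ± 0.23, 0.429) and the inhibitory receptor Pirb (-2.75 ± 0.92, 0.542). In ibrutinib they were those of Themis2 (-1.95 ± 0.33, limma adjusted p = 0.165), Dapp1 (-1.03 ± 0.19, 0.165) and Rac2 (-0.85 ± 0.17, 0.203), and in the interaction those of Rac2 and Inpp5d were among them (limma adjusted p = 1.0 each). Btk, the target of ibrutinib, differed by -1.59 ± 1.11 in DMSO and -1.9 ± 0.97 in ibrutinib over all libraries (limma adjusted p = 0.652 and 0.473). The retained set was itself chosen by Btk, and that limit left out mutant libraries only. It therefore cannot decide whether Btk differed between genotypes. Within it the difference was -0.05 ± 0.22 in DMSO. In ibrutinib the retained values were 89.1 and 44.4 in Eμ-TCL1 against 22.3, 44.0 and 31.3 in the mutant (-0.98 ± 0.41, limma adjusted p = 0.299).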

How the data were processed

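RNA from cultured spleen cells of 15 samples was sequenced, and 2 tables were deposited, 1 per treatment. Per the methods and the submitters' processing notes, the authors aligned reads to GRCm38 with TopHat2 2.0.12, used SAMtools 0.1.19, counted reads per gene with HTSeq on GENCODE M2 and normalized with edgeR. The deposited values are a signal, not counts: CPM on an effective library size, scaled within each table and rounded to 1 decimal. The depth of each library is therefore unknown and no counting interval is given. Whether counting used strand is not given in the sources used here. Column sums ran from 756625 to 1359650, and they are not depths.

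Genotypes were compared within each table by limma 3.58.1 (R 4.3.3) with a trended prior on log2(value + 1), with no further filter, and p-values were adjusted by Benjamini-Hochberg over all genes of the table (threshold 0.05). The interaction used the genes of both tables. A fold change on log2(value + 1) understates the change of low genes. Exact permutation tests on the mean log2(value + 1) of single genes were two-sided; 5 against 3 libraries cannot go below 0.0179, 4 against 3 below 0.0286, and 3 against 2 or 3 against 3 below 0.1. The labels do not say that the samples came from separate mice, so p-values measure the spread between these samples. The scripts were tested on simulated data. The 30 genes, the gene lists and the tests were chosen with earlier results of these data known. All 30 genes are named. Of the further pathway genes, Btk, any with an adjusted p under 0.05 and the 3 with the lowest p in each comparison are named, apart from 1 gene that is not reported here. Exon lengths and overlaps came from GENCODE M21 on GRCm38, and promoter sequences from RefSeq. The alternatives tried were the pseudocount, a filter on low values, quantile normalization, quality weights, centring on B-cell markers, leaving out libraries and a replicate block. Tables and plots used Python 3.11.15 and matplotlib 3.10.9.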

Additional observations from a re-analysis of the deposited data

Results flagged for a closer look

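Each gene was examined for a library far from the others of its group in the mutant groups, which hold 5 and 4 libraries, 60 groups in all, by the gap to the nearest value relative to the range on the log2(value + 1) scale. Chance flags about 1 in 20 such groups, and 2 were found. Lyn was 4.9 in Eμ-TCL1;p53R172H/+ replicate 1 in ibrutinib, where the other 3 mutant libraries had 79.9 to 132.4. Sos1 was 42.5 in the same library, where the others had 83.4 to 84.8. This is the low-Btk library with Btk of 1.4. The groups of 3 libraries were not examined in this way, and no interaction of genotype and treatment passed its adjusted threshold.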

How the results depend on the processing

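None of the 30 genes had an adjusted p under 0.05 under any alternative in any comparison, where the smallest values were 0.0637 in DMSO (Vav3, sample quality weights), 0.0947 in ibrutinib (Vav3, retained libraries) and 0.305 in the interaction (Pik3ap1, retained libraries). The settings that used Lyz2 or left out mutant replicate 3 of the retained libraries were chosen after seeing the data. In DMSO, 2 of all genes passed the adjusted threshold, 1 of the 30 had an unadjusted p under 0.05 and 20 of the 30 were lower in the mutant. These counts became 6 genes passing with a pseudocount of 5; 0 of the 30 at the unadjusted p with quantile normalization; 803 and 8 of the 30 with quality weights; 1, 3 and 10 lower with Btk of 10 or more; 0, 0 and 11 lower when centred on B-cell markers; 12 and 6 in the retained libraries; and 61 and 2 with Lyz2 under 1000. In ibrutinib, where 0 genes, 6 of the 30 and 24 lower was the result, quality weights gave 28 and 11, centring on B-cell markers gave 1 of the 30 and 8 lower, the retained libraries gave 15 of the 30 and 12 without mutant replicate 3, and Lyz2 under 1000 gave 24 genes. In the interaction, 0 of the 30 had an unadjusted p under 0.05 and 28 were lower. Quality weights gave 3, Btk of 10 or more 7, the retained libraries 8 (6 without mutant ibrutinib replicate 3) and Lyz2 under 1000 1 of the 30, and centring on B-cell markers gave 11 lower. Apart from the alternatives named here and the block below, these counts stayed within 1.5 times of the values above. Single genes changed sign in 65 of 540 values in DMSO, 35 of 539 in ibrutinib and 94 of 810 in the interaction. Of those with an unadjusted p under 0.05 before or after the change, the difference of Vav2 in DMSO changed to 1.11 with Btk of 10 or more and to 0.68 in the retained libraries, and in ibrutinib those of Cr2, Prkcb and Bcl10 changed to 0.13, 0.48 and 0.96 when centred on B-cell markers. Leaving out 1 library at a time gave 0 (Eμ-TCL1 replicate 3) to 61 (Eμ-TCL1 replicate 2) genes passing and 0 (Eμ-TCL1 replicate 4 or mutant replicate 2) to 4 (mutant replicate 4) of the 30 at the unadjusted p in DMSO. In ibrutinib it gave 0 to 24 (Eμ-TCL1 replicate 1) genes and 2 (Eμ-TCL1 or mutant replicate 3) to 9 (mutant replicate 4) of the 30. In the interaction it gave 0 to 1 of the 30, and 18 (mutant ibrutinib replicate 1) to 28 lower. The cause of these changes was not tested. Apart from the block below, shares of all genes at the unadjusted p are given only in the Results, for the library sets described there. For quality weights, Lyz2 under 1000, quantile normalization, centring and single libraries left out, no such share was computed. Counts of the 30 at the unadjusted p under those settings are therefore not a result about these genes. The tables hold no counts, so the depth behind low values such as those of Cr2 and Vav3 is not known.

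With the replicate number as a block, 0 of all genes passed the adjusted threshold in each comparison, and 5 of the 30 in DMSO (5.89% of all genes), 18 in ibrutinib (9.07%) and 12 in the interaction (5.05%) had an unadjusted p under 0.05. Between genotypes the numbers did not pair the samples, with correlations of their deviations of -0.19 to 0.28. Between treatments the correlations were 0.75 to 0.83 for 5 pairs and -0.11 for mutant replicate 3. The block for the interaction joins these pairs, and without mutant replicate 3, chosen after seeing the data, it gave 14 of the 30 (4.25%).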
